A study of Mus musculus with 31 samples.

Results

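The collagen genes of the mouse hippocampus were followed from 10 days after birth to 20 months of age. The family was taken as every probe set whose gene symbol in the array annotation is that of a collagen chain (Col, a number, a, a number), which gave 82 of 45037 mouse probe sets and 42 of 18193 named genes. Of these, 53 probe sets of 33 genes passed the filter on low signal and were tested, and each gene is shown by its tested probe set with the highest mean. The other 9 genes (Col2a1, Col24a1, Col4a3, Col4a4, Col6a4, Col6a5, Col10a1, Col9a2 and Col17a1) lay below the filter, so no statement is made about them.

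Total RNA came from the hippocampus of 31 male C57BL/6 mice, 1 array for each mouse. The mice were wild type (wt) or carried a Glud1 transgene (Tg) that over-expresses glutamate dehydrogenase 1, a mitochondrial enzyme of glutamate metabolism, in neurons. They were 10 days, 4.5, 9, 14.5 or 20 months old, and each genotype had 3 mice at each age, wt at 10 days having 4. The Glud1 probe sets of this array lie outside the part of the gene that the transgene carries, so they cannot check the genotype labels. Signals are printed as normalized signal (the deposited value after quantile normalization), on which the median of every array was 114.5. Changes are log2 fold changes ± standard error from 1 limma model over all arrays, and every adjusted p takes in all 26877 probe sets tested (Benjamini-Hochberg).

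Collagens are triple helices of 3 chains that are built in the endoplasmic reticulum and secreted. Fibrillar collagens (types I, II, III, V, XI, XXIV and XXVII) form the cables of connective tissue, which in the brain is found in the meninges, around larger vessels and in the stroma of the choroid plexus. Type IV collagen forms the network of basement membranes, which in brain tissue surround every capillary, and type VIII forms hexagonal lattices. The FACIT collagens attach to fibrils, the multiplexins XV and XVIII sit in basement membranes, and the transmembrane collagens are anchored in the plasma membrane, type XXV being made by neurons. In a bulk sample fewer cells of a type and less RNA per cell cannot be told apart.

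The promoters of 4 genes that figure in the results below and the start of a pair that moved together are shown first, from RefSeq on GRCm38.p6. Of the 42 collagen genes, 33 have an entry in the promoter table used, 26 of them tested. Capitals mark 3 motifs on either strand: CCAAT (the CCAAT box), GGGCGG (the GC box) and TATAAA (the TATA box). Each promoter is the 250 bases before the annotated start. Col3a1 and Col1a2 are fibrillar chains that were higher at 10 days than later, Col11a2 is a fibrillar chain that was lower at 10 days, and Col8a1 is the chain that followed the choroid plexus markers most steeply. Col4a1 and Col4a2, the chains of the common basement membrane collagen, lie head to head on opposite strands, and their annotated starts are 21 bases apart, so that the first bases of both transcripts overlap. Those bases are shown in the direction of Col4a2.
Col3a1 (chr1:45311288-45311537, plus strand): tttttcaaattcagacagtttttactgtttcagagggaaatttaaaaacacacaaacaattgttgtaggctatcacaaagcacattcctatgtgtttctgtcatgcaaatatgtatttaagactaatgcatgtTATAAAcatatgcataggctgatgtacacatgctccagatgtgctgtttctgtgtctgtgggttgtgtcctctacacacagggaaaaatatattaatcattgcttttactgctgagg
Col1a2 (chr6:4505368-4505617, plus strand): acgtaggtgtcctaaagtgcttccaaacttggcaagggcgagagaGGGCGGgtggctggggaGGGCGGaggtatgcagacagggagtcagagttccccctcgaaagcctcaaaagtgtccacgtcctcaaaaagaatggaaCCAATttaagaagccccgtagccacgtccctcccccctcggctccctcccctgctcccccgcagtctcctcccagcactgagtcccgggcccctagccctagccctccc
Col11a2 (chr17:34038888-34039137, plus strand): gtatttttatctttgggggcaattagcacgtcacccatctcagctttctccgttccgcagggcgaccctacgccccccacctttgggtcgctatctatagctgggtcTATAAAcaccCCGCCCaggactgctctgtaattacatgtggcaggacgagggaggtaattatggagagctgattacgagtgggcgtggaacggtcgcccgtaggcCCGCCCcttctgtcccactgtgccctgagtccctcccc
Col8a1 (chr16:57754738-57754987, minus strand): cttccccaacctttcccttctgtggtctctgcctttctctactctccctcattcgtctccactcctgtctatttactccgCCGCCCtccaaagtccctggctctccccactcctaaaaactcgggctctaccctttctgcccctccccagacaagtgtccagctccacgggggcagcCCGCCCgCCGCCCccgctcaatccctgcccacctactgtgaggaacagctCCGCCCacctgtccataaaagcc
Col4a1 and Col4a2, from start to start (chr8:11312805-11312826): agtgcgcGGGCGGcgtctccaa
The searched windows also took in the 50 bases after each start, 300 in all. GGGCGG was found in 18 of the 26 tested collagen genes with an entry, 69.2%, and in 35.7% of 32851 promoters of all genes. CCAAT was found in 10 of the 26, 38.5%, beside 37.4% of all promoters, and TATAAA in 3, 11.5%, beside 13.6%. The collagen shares take a single promoter for each tested gene. Those of all genes take every distinct promoter of a gene, tested or not, so the sets are unlike. A match is a run of letters and not a binding site.

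Collagen signals varied more between mice of the same group than those of most genes. The standard deviation within groups had a median of 0.42 over the 33 collagen genes on the log2 scale, beside 0.17 over all 12844 genes tested, and it ran from 0.14 for Col4a1 to 1.35 for Col8a1. The basement membrane chains Col4a1 and Col4a2 were the steadiest of the 33, and the fibrillar chains Col1a1 and Col3a1 and the chains Col9a3 and Col8a1 the most variable. Over the 5 ages 21 of 33 collagen genes changed by the F-test, or 63.6%, where 87.4% of all genes did. Only 10 of the 33 lay above the array median on every array, and Col22a1 and Col26a1 passed the filter through the mice of 10 days alone.

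From 10 days to 4.5 months 13 of 33 collagen genes fell and 2 rose. The shares were 39.4% lower, beside 35.5% of all genes, and 6.06% higher, beside 31.2%, so the share that fell was close to the background. The median change of the 33 was -0.34, beside -0.04 over all genes, and 27 of them lay below 0, 81.8% where 52.9% of all genes did. The 5 largest falls were those of Col3a1, Col1a1, Col26a1, Col4a5 and Col4a1. In all, 11 collagen genes were lower in every mouse of 4.5 months than in every mouse of 10 days, beside 23.1% of all genes. Only 1, Col11a2, was higher in every mouse, beside 20.1%. Col26a1 and Col22a1 are counted in both the 13 and the 11. They passed the filter through the mice of 10 days alone, so a difference was built into their being tested. Without quantile normalization the median of all probe sets moved from 0.01 to 0.14 in this comparison. The arrays of 4.5 months, which enter both this comparison and that of aging, stood apart in the log2 ratio of the 3' to the 5' probe set of Gapdh, -0.08 to 0.02 beside at most -0.14 at every other age, and its part in either comparison was not tested.

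**Figure D1:**
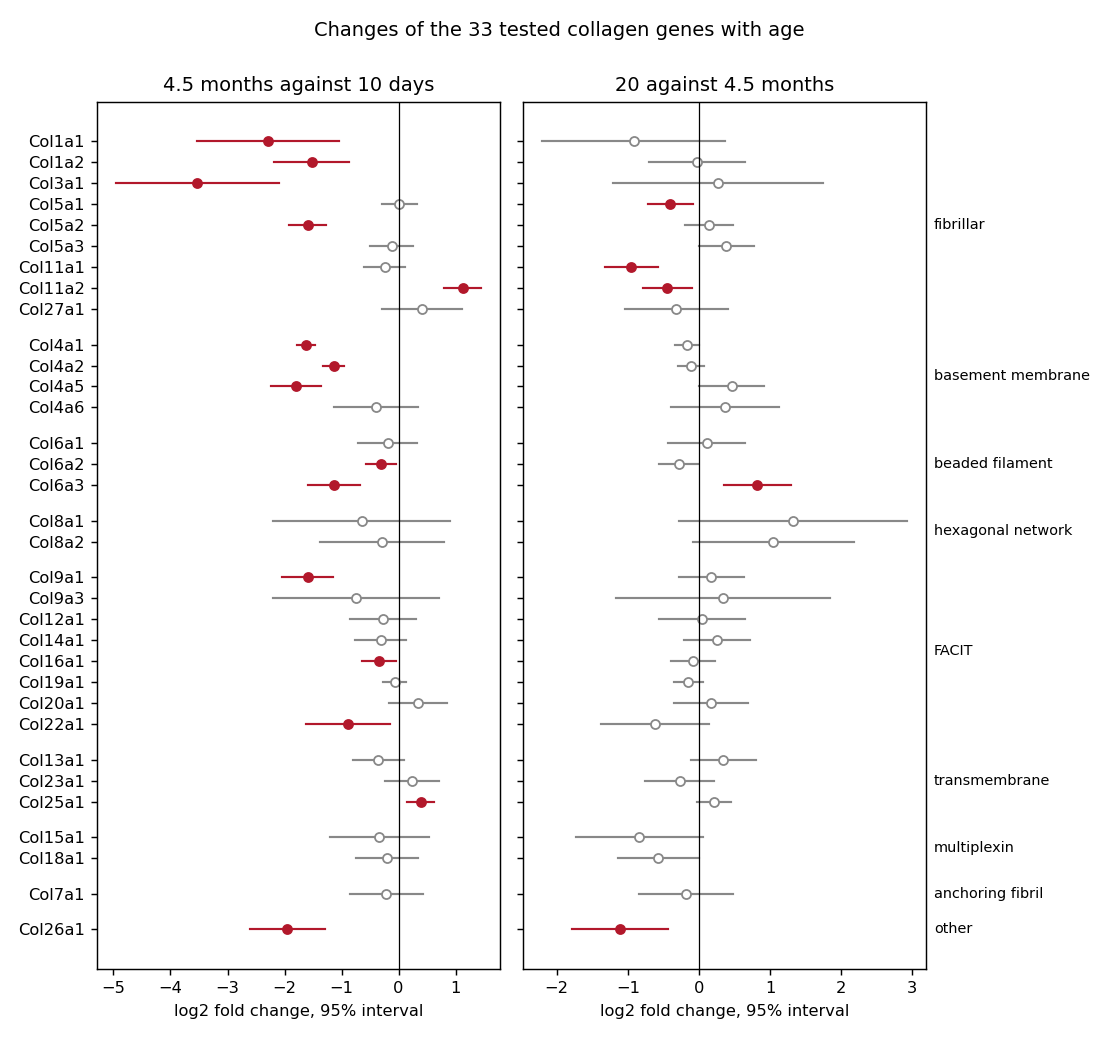
Log2 fold change (points) with its 95% interval (lines) of the 33 tested collagen genes, ordered by class, for 4.5 months against 10 days (left) and 20 against 4.5 months (right). Filled red points passed an adjusted p under 0.05, 15 on the left and 5 on the right, and the 2 horizontal scales differ.

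Among the fibrillar chains 4 of 9 fell and 1 rose. Col3a1, the only chain of type III collagen, had a normalized signal of 1121 to 2556 with a median of 1799 in the 7 mice of 10 days, and of 106 to 226 with a median of 141 in the 6 mice of 4.5 months. The ages did not overlap, and the difference of -3.53 ± 0.69 was 11.6-fold (adjusted p = 0.00012). Its second probe set was at -4.77 ± 0.76, and it had passed the filter through the pups alone, so that a difference was built into its being tested.

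Type I collagen, the main collagen of connective tissue, is made of Col1a1 and Col1a2, and both chains fell. Col1a2 had a signal of 765 to 2192 at 10 days (median 1082) and of 383 to 487 at 4.5 months (median 423). Its change was -1.52 ± 0.32 (adjusted p = 0.000224), and every young adult was below every pup. Col1a1 had a signal of 305 to 983 at 10 days (median 565) and of 76.6 to 179 at 4.5 months (median 87.5), a change of -2.29 ± 0.60 (adjusted p = 0.00205). The second probe set of Col1a2 fell as well, by 2.63 ± 0.32. That of Col1a1, at -1.52 ± 0.31, had passed the filter through the pups alone and adds no support.

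Type V collagen sets the width of type I fibrils, and its chains did not move alike. Col5a2, which is the next protein-coding gene to Col3a1 on chromosome 1, had a signal of 353 to 629.5 at 10 days (median 385) and of 103 to 205 at 4.5 months (median 144). It fell by 1.59 ± 0.16 (adjusted p = 6.47e-10), and by 1.54 ± 0.22 on its second probe set. Col5a1 was at 0.02 ± 0.15 and Col5a3 at -0.12 ± 0.18, neither past the threshold. For Col5a1 the probe sets disagreed, since the second fell by 0.84 ± 0.16 (adjusted p = 3.29e-05).

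Type XI collagen, a cartilage collagen also found in other tissues, moved in the opposite sense through its second chain. Col11a2 had a signal of 71.1 to 140.1 at 10 days (median 93.7) and of 156 to 272 at 4.5 months (median 209), so it was higher in every young adult than in every pup. It rose by 1.12 ± 0.16 (adjusted p = 4.99e-07), the largest rise of the family. Col11a1 was at -0.24 ± 0.18 on the probe set that stands for it, and its second probe set fell 2.47-fold (adjusted p = 9.88e-06). That second probe set would not have passed the filter without the pups, so a difference was built into its being tested. Col27a1 was at 0.41 ± 0.34, and its second probe set rose by 0.95 ± 0.28.

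**Figure D2:**
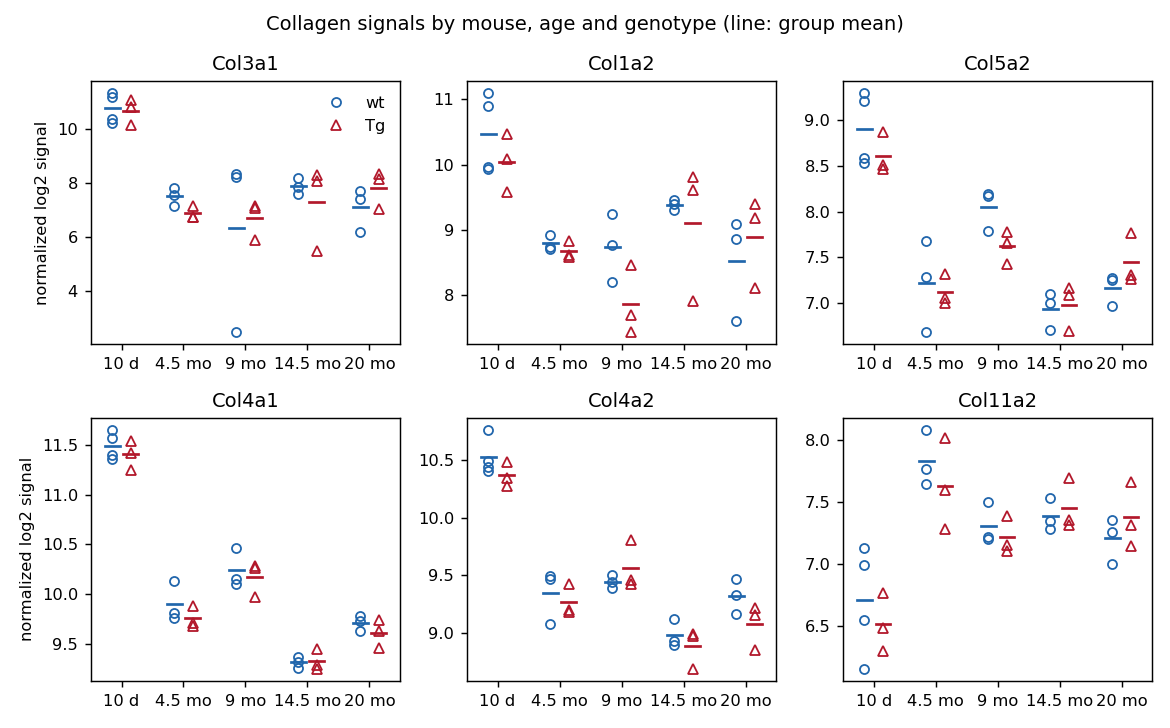
Normalized log2 signal of Col3a1, Col1a2, Col5a2, Col4a1, Col4a2 and Col11a2 in each of the 31 mice by age, circles for wt, triangles for Tg, lines for group means, each panel with its own vertical scale. The first 5 chains were above the signal of 4.5 months in all 7 mice of 10 days and Col11a2 below it, and 1 wt mouse of 9 months lies far under the others for Col3a1, with a signal of 5.54.

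Of the 4 basement membrane chains tested 3 fell. Col4a1 had a signal of 2442 to 3226 at 10 days (median 2745) and of 822 to 1122 at 4.5 months (median 882), a 3.08-fold difference of -1.62 ± 0.08 (adjusted p = 3.31e-17). Col4a2, its partner in the trimer and its neighbour across the shared start shown above, had a signal of 1239 to 1737 at 10 days (median 1392) and of 539.6 to 723 at 4.5 months (median 638), a change of -1.14 ± 0.09 (adjusted p = 2.86e-12). The ages were apart for both. A second probe set of Col4a1 was at -0.22 in this comparison and did not pass, with a signal of 539 to 736 at 10 days and of 436 to 669 at 4.5 months.

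Col4a5 and Col4a6 form the network of other basement membranes and are also neighbours, on the X chromosome. Col4a5 had a signal of 346 to 777 at 10 days (median 563) and of 119 to 197 at 4.5 months (median 153). It fell by 1.79 ± 0.21 (adjusted p = 2.54e-08), and by 1.18 ± 0.21 on its second probe set. Col4a6 had a signal of 23.7 to 194 at 10 days (median 149) and of 51.3 to 185 at 4.5 months (median 89.0). Its change of -0.40 ± 0.36 did not pass. The 23.7 came from Tg mouse 1 of 10 days, far below the other pups. The neighbours Col4a5 and Col4a6 therefore gave different calls, which is not a test of their difference.

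Type VI collagen makes beaded filaments beside basement membranes. Its long chain Col6a3 had a signal of 156 to 295 at 10 days (median 177) and of 45.8 to 144 at 4.5 months (median 92.8), and fell by 1.13 ± 0.22 (adjusted p = 7.21e-05). Col6a2 fell by 0.31 ± 0.13 (adjusted p = 0.0381) and by 1.08 ± 0.32 on a second probe set, while Col6a1, the third chain, was at -0.19 ± 0.25. The FACIT chain Col9a1 had a signal of 177 to 269 at 10 days and of 54.2 to 87.8 at 4.5 months, and it fell by 1.59 ± 0.22 (adjusted p = 2.18e-07). Of the other 7 FACIT genes Col16a1 (-0.34 ± 0.14) and Col22a1 (-0.89 ± 0.36) also fell, and Col12a1, Col14a1, Col19a1, Col20a1 and Col9a3 did not pass. The probe sets disagreed for Col22a1, whose second was at -0.88 and did not pass, and for Col9a3, whose second fell by 1.26. Col22a1 too had passed the filter through the pups alone. The calls of Col6a2, Col16a1 and Col22a1 were lost without any 1 of 7, 8 and 5 mice, and in 5 of 12, 5 of 12 and 4 of 11 other settings.

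Col26a1, which belongs to none of the classes above, had a signal of 293 to 388 at 10 days and of 81.3 to 94.6 at 4.5 months, under the array median. It fell by 1.95 ± 0.32 (adjusted p = 5.09e-06), and since it passed the filter through the pups alone, a difference was built into its being tested. Among the transmembrane collagens the neuronal Col25a1 had a signal of 501 to 588 at 10 days (median 533) and of 535 to 921 at 4.5 months (median 703), and it rose by 0.39 ± 0.12 (adjusted p = 0.00428). Its second probe set was at -1.06 and did not pass, and the median of both turned the direction, to -0.34. Col13a1 and Col23a1, the hexagonal network chains Col8a1 and Col8a2, the multiplexins Col15a1 and Col18a1 and the anchoring fibril chain Col7a1 did not pass.

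The fall was seen in each genotype. In Tg mice 1 collagen gene rose and 11 fell, where 25.7% of all genes rose and 27.5% fell, and in wt mice 2 rose and 12 fell, where 26.3% rose and 30.1% fell. Col3a1 changed by -3.80 in Tg and -3.26 in wt, Col4a1 by -1.65 and -1.60, and Col11a2 by 1.12 and 1.13. The interaction of genotype with this age step passed for 0 of 33 collagen genes and 0% of all genes, with 3 of the 33 and 6.73% of all genes at an unadjusted p under 0.05 in limma.

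The genes that build, fold and hold collagen were followed through 6 lists with 62 tested members. From 10 days to 4.5 months 24 of the 62 fell and 13 rose, with a median change of -0.18. The 38.7% that fell were close to the 35.5% of all genes, and the 21.0% that rose were fewer than the 31.2% of all genes. The 12 genes of basement membrane partners had 7 that fell, or 58.3%, and 2 that rose. Among the 7 were the laminin chain Lama4 (-2.57 ± 0.40), the nidogen Nid1, which links laminin to type IV collagen (-2.42 ± 0.26), Nid2 (-2.03 ± 0.29) and Agrn, which codes for a heparan sulfate proteoglycan (-0.80 ± 0.08). Of the 16 genes of synthesis and folding 7 fell and 5 rose: Serpinh1, the collagen-specific chaperone, fell by 1.58 ± 0.15, Ppib, which helps the helix fold, by 0.94 ± 0.06, and Plod2, which hydroxylates lysines for crosslinks, by 1.16 ± 0.13, while Mia3, needed to export procollagen from the endoplasmic reticulum, rose by 0.64 ± 0.05. In processing and crosslinking 3 of 8 fell and 1 rose, with the propeptidase Adamts3 at -1.17 ± 0.09 and lysyl oxidase, Lox, at -1.48 ± 0.39 among those that fell and the propeptidase Bmp1 rising by 0.82 ± 0.12.

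In the list of breakdown 4 of 12 fell, 33.3%, and 3 rose. Those that fell were the proteases Mmp2 (-2.02 ± 0.31), Mmp14 (-0.92 ± 0.10) and Ctsk (-0.85 ± 0.22) and the inhibitor Timp2 (-0.48 ± 0.10), and the 3 that rose, Timp3 (0.31 ± 0.11), Timp4 (0.43 ± 0.09) and Reck (0.55 ± 0.16), are all inhibitors of matrix proteases. Ctsk, Timp3 and Reck were named after their values were seen, to give all 7 called genes of the list. Of 7 receptors 2 fell, Itgb1, the shared chain of the collagen-binding integrins, by 1.39 ± 0.11 and its partner Itga1 by 1.23 ± 0.24. The small leucine-rich proteoglycans, which coat fibrils, had 2 of 7 that rose, Prelp by 2.19 ± 0.24 and Ogn by 1.43 ± 0.38, and 1 that fell, Lum by 0.48 ± 0.18.

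Collagen-producing cells were followed by their markers in the same arrays. Of 15 markers of meningeal and vascular fibroblasts 2 fell and 1 rose from 10 days to 4.5 months, with a median change of -0.02, and Dcn, an abundant marker of these cells, was at -0.13 ± 0.27. The mean log2 signal of the 15 ran from 7.73 to 9.13 at 10 days and from 8.27 to 8.74 at 4.5 months, so it overlapped. The list shares Pdgfra with that of oligodendrocyte precursors, and Dcn, Lum and Ogn with that of the proteoglycans. Of 11 endothelial markers 5 fell and 2 rose, and their mean ran from 8.86 to 9.00 at 10 days and from 8.41 to 8.71 at 4.5 months, which did not overlap. Of 9 mural cell markers 4 fell and 1 rose. The shares that fell were 13.3% for fibroblasts, 45.5% for endothelium and 44.4% for mural cells, beside 35.5% of all genes, and those that rose were 6.67%, 18.2% and 11.1%, beside 31.2%.

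Within groups of the same age and genotype, 5 of 33 collagen genes were higher in mice with more fibroblast marker signal, beside 1.2% of all genes. They were Col1a2 (slope 0.92 ± 0.08 log2 units for each unit of the marker mean, adjusted p = 6.36e-09), Col1a1 (1.66 ± 0.20), Col3a1 (1.72 ± 0.26), Col4a5 (0.63 ± 0.08) and Col12a1 (0.62 ± 0.15), which is a FACIT chain of fibrous tissue. Col4a1, Col4a2 and Col5a2 were not among them. The second probe set of Col1a2 passed too, with a slope of 0.84 ± 0.14. Those of Col1a1 (0.43 ± 0.19), Col3a1 (0.62 ± 0.50), Col4a5 (0.38 ± 0.12) and Col12a1 (0.58 ± 0.32) did not pass. With the fibroblast mean in the model, the change from 10 days to 4.5 months was -3.61 ± 0.40 for Col3a1, -2.37 ± 0.31 for Col1a1 and -1.57 ± 0.12 for Col1a2, each close to its value without it and with a smaller error. With the endothelial mean in its place, the same 3 genes no longer passed, at -1.40 ± 0.81, -0.12 ± 0.64 and -0.62 ± 0.39. Col4a1 (-1.39 ± 0.10), Col4a2 (-1.11 ± 0.13) and Col5a2 (-1.45 ± 0.24) still did. The endothelial mean did not overlap between 10 days and 4.5 months. Whether cell makeup had a part in the fall was not tested beyond these values.

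**Figure D3:**
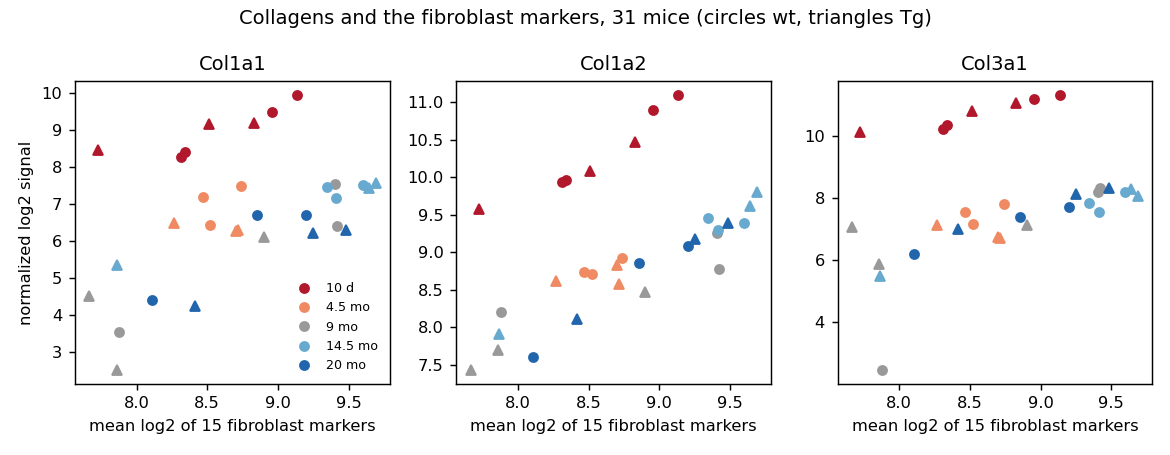
Normalized log2 signal of Col1a1, Col1a2 and Col3a1 against the mean normalized log2 signal of 15 fibroblast markers in the 31 mice, coloured by age, circles for wt and triangles for Tg. Each chain, shown by the probe set that stands for it, rises with the marker mean within groups (slopes 1.66, 0.92 and 1.72), and at a like marker mean the mice of 10 days had more of each than those of 4.5 months (-2.37, -1.57 and -3.61). The slopes of the second probe sets of Col1a1 and Col3a1 did not pass.

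Choroid plexus tissue, which lies beside the hippocampus in the lateral ventricle, was followed in the same way, and its marker signal differed widely from mouse to mouse. The mean log2 signal of 11 choroid plexus markers ran from 5.67 to 9.65 at 10 days, 5.12 to 10.7 at 4.5 months, 6.01 to 10.6 at 9 months, 8.15 to 10.9 at 14.5 months and 7.54 to 10.6 at 20 months. Within groups 3 of 33 collagen genes rose with it, beside 1.92% of all genes: Col8a1 with a slope of 0.82 ± 0.06 (adjusted p = 2.22e-11), Col8a2 with 0.59 ± 0.05 and Col9a3 with 0.69 ± 0.09. Second probe sets of Col8a1 (0.67 ± 0.07) and Col9a3 (0.51 ± 0.06) gave slopes past the threshold too. The spread of these chains within an age was wide, and at 4.5 months Col8a1 ran from 40.0 to 526 and Col9a3 from 78.1 to 788. Negative slopes past the threshold numbered 0 of 33 on either mean, beside 0.249% of all genes on the choroid plexus mean and 0.0234% on the fibroblast mean, and Col27a1 had the largest negative estimate on the fibroblast mean, -0.44 ± 0.21 (unadjusted p = 0.0475, adjusted p = 0.52).

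**Figure D4:**
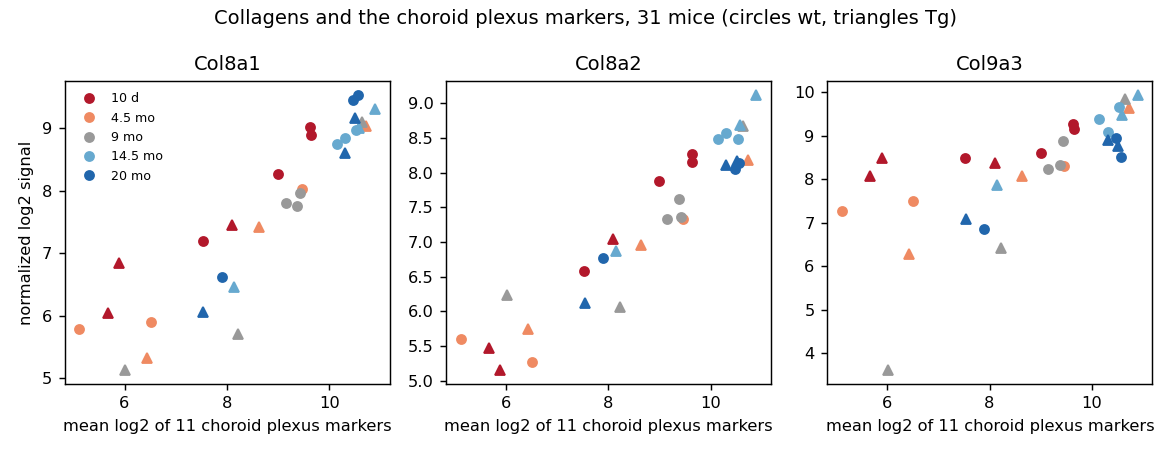
Normalized log2 signal of Col8a1, Col8a2 and Col9a3 against the mean normalized log2 signal of 11 choroid plexus markers in the 31 mice, coloured by age, circles for wt and triangles for Tg. All 3 rise along the marker axis, Col8a1 and Col8a2 in a narrower band than Col9a3.

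From 4.5 to 20 months 1 of 33 collagen genes rose and 4 fell, 15.2% in all, beside 42.3% of all genes, of which 22.4% rose and 19.9% fell. The median change of the 33 was -0.03, and 0 of them were apart between the mice of the 2 ages, where 11.8% of all genes were higher and 12.2% lower throughout. Col11a1 had a signal of 117 to 233 at 4.5 months (median 181) and of 65.3 to 129 at 20 months (median 88.9), and it fell by 0.95 ± 0.18 (adjusted p = 0.00012). Its second probe set, already under the array median in every mouse of 4.5 months, was at -0.04. Its partner Col11a2 had a signal of 156 to 272 at 4.5 months and of 128 to 203 at 20 months, and fell by 0.44 ± 0.17 (adjusted p = 0.0344).

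Col5a1 fell by 0.41 ± 0.15 (adjusted p = 0.0369), from a range of 216 to 352 to one of 134 to 298, and its second probe set was at 0.14. The call was lost without any 1 of 7 mice and in 6 of 12 other settings, with changes down to -0.13 and adjusted p up to 0.478. That of Col11a2 was lost without any 1 of 5 mice and in 4 of 11 settings. Col26a1 fell by 1.11 ± 0.33, with signals under the array median at both ages. Col6a3 rose by 0.82 ± 0.23 (adjusted p = 0.00555), from a range of 45.8 to 144 to one of 127 to 217. Among chains that fell after 10 days and did not pass here, Col1a1 was at -0.92 ± 0.62, Col3a1 at 0.27 ± 0.71, Col1a2 at -0.03 ± 0.33, Col5a2 at 0.14 ± 0.17 and Col4a2 at -0.11 ± 0.09. The 95% interval of Col4a2 ran from -0.30 to 0.08 and that of Col3a1 from -1.21 to 1.75. With the fibroblast mean in the model both type I chains passed, Col1a1 at -1.45 ± 0.33 (adjusted p = 0.000726) and Col1a2 at -0.32 ± 0.12 (adjusted p = 0.0383). With the endothelial mean neither passed, at -0.27 ± 0.47 and 0.24 ± 0.29. The choroid plexus mean gave -0.93 ± 0.69 and -0.17 ± 0.35, again not past the threshold.

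For Col4a1 the probe sets differed in the aging comparison. The probe set that stands for it was at -0.17 ± 0.08 (adjusted p = 0.0959), and the second, with a signal of 436 to 669 at 4.5 months and of 198 to 341 at 20 months, fell by 0.99 ± 0.14 (adjusted p = 1.9e-06). Col8a1 (1.32 ± 0.77) and Col8a2 (1.04 ± 0.55) had the largest positive estimates and did not pass, and the median change of the 11 choroid plexus markers was 1.67 between the same mice. Within a genotype 0 collagen genes rose and 2 fell in Tg, where 12.1% and 12.7% of all genes did, and 1 rose and 3 fell in wt, where 15.8% and 15.4% did. The interaction of genotype with this step passed for 0 of 33, beside 0.00779% of all genes, with 1 of 33 and 6.51% at an unadjusted p under 0.05 in limma. Of the 62 partner genes 12 rose and 13 fell with a median of 0.11, and 3 of the 15 fibroblast markers rose. These are 19.4% and 21.0% of the partners and 20.0% of the markers, close to the 22.4% of all genes that rose and 19.9% that fell. Among the partners the laminin chain Lama1 rose by 1.61 ± 0.34 (adjusted p = 0.000381), and Mia3, which had risen after 10 days, fell by 0.55 ± 0.05.

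Single steps between adult ages moved several chains and moved them back. From 4.5 to 9 months 5 collagen genes rose and 5 fell, beside 20.6% and 24.3% of all genes, from 9 to 14.5 months 4 rose and 7 fell, beside 26.3% and 21.9%, and from 14.5 to 20 months 3 rose and 1 fell, beside 18.3% and 15.3%. As a share of the tested collagen genes, each count lay under that of all genes, the 7 that fell only just. Col4a1 changed by 0.38 ± 0.08, then by -0.89 ± 0.08, then by 0.34 ± 0.08, and Col19a1, a FACIT chain that interneurons make, by 0.39 ± 0.10, -0.98 ± 0.10 and 0.44 ± 0.10, all past the threshold. The second probe set of Col19a1 moved the same way at each step (0.51, -1.13 and 0.60), and that of Col4a1 did not, at -0.55, -0.07 and -0.38, of which the first and last passed. Col19a1 had a signal of 743 to 906 at 9 months and of 362 to 461 at 14.5 months, with no overlap. Col5a2 rose by 0.67 ± 0.17 and then fell by 0.88 ± 0.17, and Col4a2 fell by 0.57 ± 0.09 and then rose by 0.26 ± 0.09.

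The opposite order was found for the multiplexins and Col1a1, which were lower at 9 months. Col18a1, whose end fragment is endostatin, changed by -1.16 ± 0.28 and then by 1.17 ± 0.28, Col15a1 by -1.37 ± 0.44 and then by 1.48 ± 0.44, and Col1a1 by -1.58 ± 0.62 and then by 1.98 ± 0.62. The second probe set of Col18a1 moved likewise (-1.82 ± 0.36, then a 3.99-fold rise), while that of Col1a1 was at -0.31 and -0.04 and did not pass. The signal of Col1a1 at 9 months ran from 5.76 to 187, with a median of 45.9. The arrays of 9 months stood apart in a measure of RNA quality, the log2 ratio of the 3' to the 5' probe set of actin, which ran from 0.71 to 0.96 there and from 0.32 to 0.55 at the other ages. Mural cell markers had their lowest mean at 9 months, 8.03 to 9.26, beside 8.72 to 9.60 over the other ages. Endothelial markers ran from 7.93 to 8.40 at 9 months and from 8.36 to 9.00 over the other ages. The fibroblast marker mean ran from 7.67 to 9.42 at 9 months, with a median of 8.39. Its median was 8.61 at 4.5 and 9.51 at 14.5 months. The part of these in the steps was not tested.

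Between Tg and wt mice at single ages a gene was called at a difference of 1.3-fold or more with an adjusted p no higher than 0.01. At 10 days, 4.5, 14.5 and 20 months 0 of 33 collagen genes passed in limma, beside 0%, 0%, 0% and 0.0311% of all genes (at 20 months 0.0234% higher and 0.00779% lower). At an unadjusted p under 0.05 there were 3, 1, 0 and 0 of 33, beside 5.65%, 6.73%, 0.942% and 4.84%. At 9 months 1 collagen gene passed, lower in Tg, beside 0.545% of all genes lower and 0.148% higher, and at an unadjusted p under 0.05 there were 5 of 33, 15.2%, beside 18.1% of all genes.

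That gene was Col5a1, the chain that starts fibril assembly. Its signal was 146, 134 and 154 in the 3 Tg mice of 9 months and 303, 305 and 264 in the 3 wt mice, so the genotypes did not overlap, and the signal was 2.01-fold lower in Tg (adjusted p = 0.00979). Its second probe set gave 145, 99.2 and 180.3 in Tg and 232, 229.8 and 242 in wt, -0.77 ± 0.23 with an adjusted p of 0.058. At the other 4 ages Col5a1 lay between -0.20 and 0.17, and the F-test of interaction over all ages gave an adjusted p of 0.264, so a difference between ages was not shown. The call was lost when any of 24 of the 31 mice was left out, with adjusted p from 0.00577 to 0.0352 over all 31, and in 6 of 10 other settings, with adjusted p from 0.00875 to 0.219.

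A second probe set of Col18a1 also passed at 9 months, where 0.406% of all probe sets were called lower, at -2.38 ± 0.51 (adjusted p = 0.00977), with 19.8, 4.49 and 34.6 in Tg and 34.3, 147 and 86.1 in wt, all but the 147 under the array median, and the highest Tg mouse was above the lowest wt mouse. This call was lost without any 1 of 27 of the 31 mice, with changes from -3.01 to -1.53 and adjusted p up to 0.0622, and in 7 of 8 other settings, with adjusted p up to 0.489. The probe set that stands for the gene gave 87.3, 86.0 and 47.5 in Tg and 33.5, 91.8 and 129 in wt. At 9 months the actin ratio ran from 0.71 to 0.76 in Tg and from 0.77 to 0.96 in wt and the mural marker mean from 8.03 to 8.76 and from 8.27 to 9.26, and the part of these in the 2 calls was not tested.

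Averaged over the 5 ages 0 of 33 collagen genes differed between Tg and wt, beside 0.0156% of all genes, with 3 of 33 and 8.5% of all genes at an unadjusted p under 0.05 in limma. Those 3 were Col23a1, a transmembrane collagen, at -0.50 ± 0.15 (adjusted p = 0.4), Col5a3 at -0.28 ± 0.12 and Col26a1 at -0.43 ± 0.21. Col23a1 was below 0 at each of the 5 ages, from -0.25 to -1.03, while a second of its 3 probe sets was above 0 at 3 ages, and at 9 months its signal was 94.0, 148 and 225 in Tg and 521, 189 and 271 in wt, which overlap. The median of the 33 averages was -0.09, with 29 of 33 below 0, or 87.9%, beside -0.01 and 58.2% over all genes. The mean fibroblast marker signal was lower in Tg than in wt at 10 days (8.36 ± 0.57 and 8.69 ± 0.42, SD), 9 months (8.14 ± 0.66 and 8.90 ± 0.89) and 14.5 months (9.07 ± 1.04 and 9.45 ± 0.13), like at 4.5 months (8.56 ± 0.25 and 8.58 ± 0.14) and higher at 20 months (9.05 ± 0.56 and 8.72 ± 0.56), with overlapping mice at each age, and its part in these averages was not tested. The F-tests of the genotype over all ages and of its interaction with age passed for 0 of 33, beside 0.195% and 0.0623% of all genes, with 3 and 1 of 33 at an unadjusted p under 0.05 in limma, beside 9.28% and 8.38% of all genes.

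**Figure D5:**
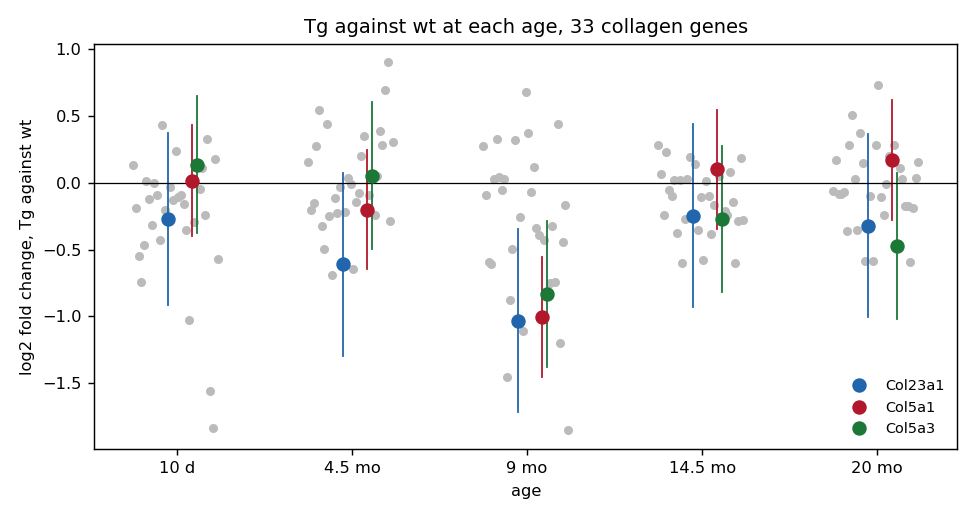
Log2 fold change of Tg against wt for each of the 33 collagen genes (grey points) at each age, with Col5a1, Col5a3 and Col23a1 in colour and their 95% intervals as lines. The points spread most at 9 months, from -1.85 (Col9a3) to 0.68 (Col27a1), and Col5a1 at that age is the single call. At 9 months Col9a3 was lowest in Tg mouse 3, with a signal of 12.2, and Col27a1 in wt mouse 2, with 31.9. Second probe sets of Col9a3 and Col27a1 had the opposite sign there, at 0.13 and -0.44.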

How the data were processed

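The 31 arrays (Affymetrix Mouse Genome 430 2.0) were deposited as a table of intensities that the authors made with MAS5 according to the submitters' processing notes, which name no version. The values are linear intensities, each array scaled to a trimmed mean of 500.002 to 500.003. The methods of the study describe RMA values, which were not used here. Array medians were 91.4 to 140.03, arrays of a group correlated at 0.891 to 0.952, and the number of mice limits the precision. The table holds no detection calls.

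The intensities were turned to log2 and quantile normalized. A probe set was kept where 3 or more arrays had it above their own median signal, and the kept ones entered limma 3.58.1 (R 4.3.3) with a mean for each of 10 groups and robust, trended moderation. Calls used an adjusted p under 0.05. For Tg against wt at a single age they used a fold of 1.3 and an adjusted p of at most 0.01. That fold and the 0.01 were taken from the study's methods. The study applied them with another test (SAM) and then required a further test (Cyber-T), and neither was run here. Of 45037 probe sets 34945 had 1 gene, 932 several and 9160 none in the array annotation, and only those with 1 gene were named. In simulated data with 26877 probe sets the model recovered 52 of 100 changes of 0.5 and 83 of 100 changes of 1 log2 unit between 10 days and 4.5 months, with 11 false calls. The changed probe sets were drawn from all those tested, and far fewer changed than were called in the data. These rates do not measure the power for collagen genes, whose spread within groups was wider.

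The text names the 42 collagen genes by class, gives full values for called genes, at most 8 in each direction with the largest change, for genes called between Tg and wt or else the 3 smallest p, for partner chains of a trimer, and for at most 4 genes of a list by smallest p, or highest signal for markers. Members and lists were chosen with earlier results of these data known. The slopes on marker means and the models with fibroblast or endothelial means were added after the data were seen. Same-numbered mice did not deviate together (correlation -0.20 to 0.28, median -0.01), so numbers were taken to pair nothing. The labels do not say how the mice relate, so p-values measure the spread between these mice. Figures were drawn with matplotlib 3.10.9.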

Additional observations from a re-analysis of the deposited data

Results flagged for a closer look

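Only the group of wt mice at 10 days has the 4 samples that a check for a single distant sample needs, and 33 collagen genes were checked in it. For Col15a1, a basement membrane multiplexin, 1 of the 4 mice was far below the others, with a normalized signal of 66.8 beside 138, 147 and 156, and the gap took up 0.856 of the range on the log2 scale, above Dixon's 95% critical value for 4 samples. Chance alone passes this value in about 5% of such checks. Col15a1 was not past the threshold from 10 days to 4.5 months.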

How the results depend on the processing

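Every count below stood beside the main counts of 2 genes that rose and 13 that fell from 10 days to 4.5 months, 1 and 4 from 4.5 to 20 months, 5 and 5 from 4.5 to 9, 4 and 7 from 9 to 14.5 and 3 and 1 from 14.5 to 20 months, 21 over the 5 ages, and 1 between Tg and wt at 9 months. Without quantile normalization the fallen of 4.5 to 9 months were 2, the call at 9 months became 0 and partner genes that rose after 10 days 20 against 13. Without the filter the fallen of aging were 2, the risen of 9 to 14.5 months 7, the fallen of 14.5 to 20 months 2 and the call at 9 months 0. With the mean above the 60th percentile, which leaves fewer genes to test, 1 rose and 7 fell after 10 days, 0 rose and 1 fell in aging, 3 rose and 1 fell from 4.5 to 9, 1 rose from 9 to 14.5 and 0 fell from 14.5 to 20 months, and 10 changed over the 5 ages. With every probe set counted, 23 fell after 10 days, 3 rose in aging, 9 rose and 8 fell from 4.5 to 9 and 3 fell from 14.5 to 20 months, 2 were called at 9 months and 38 over the 5 ages. With each gene taken as its probe sets' median, 2 rose in aging, 2 fell from 14.5 to 20 months, the call at 9 months was 0 and Col25a1 turned from 0.39 to -0.34 after 10 days. At an adjusted p under 0.01 and a fold of 1.3, 2 fell in aging, 2 rose and 1 fell from 4.5 to 9, 2 rose from 9 to 14.5 and 1 rose and 0 fell from 14.5 to 20 months. With only the arrays of the ages compared, 2 rose and 2 fell in aging, 3 rose from 4.5 to 9 months and the call at 9 months was 0. The call at 9 months was also 0 with plain moderation and with the choroid plexus mean as a covariate. Among covariates chosen after seeing the data, the fibroblast mean gave 8 that fell in aging, and the endothelial mean gave 1 that rose and 7 that fell after 10 days and 2 that rose in aging. The cause of these moves was not tested where the setting does not itself state it. An offset of 50 moved no count by over 1.5 times. With the replicate block 12 in place of 13 fell after 10 days and 4 in place of 5 from 4.5 to 9 months, and the block changed no other count of calls among collagen genes.

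Leaving out 1 mouse at a time, 2 to 3 rose and 10 to 13 fell after 10 days, 1 to 2 rose and 2 to 5 fell in aging, 3 to 6 rose and 2 to 6 fell from 4.5 to 9, 3 to 7 rose and 5 to 8 fell from 9 to 14.5, 2 to 3 rose and 0 to 3 fell from 14.5 to 20 months, 20 to 23 changed over the 5 ages, and 0 to 1 were called at 9 months. The risen of aging were 2 without Tg mouse 2 of 4.5 months or wt mouse 1 of 9 months, and the fallen were 2 without wt mouse 2 of 4.5 months or Tg mouse 3 of 20 months. From 4.5 to 9 months the risen were 3 at the fewest and moved by over 1.5 times without Tg mouse 3 or wt mouse 2 of 4.5 months or wt mouse 2 of 9 months, and the fallen moved without Tg mouse 1 or 2 or wt mouse 2 of 4.5 months or Tg mouse 1 of 9 months. The risen of 9 to 14.5 months moved without Tg mouse 2 of 9 months or Tg mouse 3 of 14.5 months, and the fallen of 14.5 to 20 months without Tg mouse 1 of 9 months, Tg mouse 3 of 14.5 months or wt mouse 1 or 3 of 20 months. Partner genes were 12 to 14 that rose and 21 to 26 that fell after 10 days and 8 to 15 and 11 to 14 in aging, and the slopes held for 3 to 4 genes on the choroid plexus mean and 4 to 7 on the fibroblast mean. Of single values, 1036 kept direction and call and 111 lost the call. The number of mice limits what can be seen for the chains that vary most, and signals near or under the array median limit Col26a1, Col15a1 and Col22a1.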
